A study of Mus musculus with 6 samples.

Results

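The transcripts described here are those of 10 mouse glutathione transferases, chosen by gene symbol, of 24061 genes counted in the series. Mgst1 prompted the choice after its fall in these libraries had been seen, so its difference between the groups is given as a description without a test, while the other 9 members were tested. All 10 symbols were found in the table, and all 10 genes passed the filter on low counts. The libraries were made from cultured resident fibroblasts of fibrotic lungs of mice with a TGF-alpha transgene, a growth factor that acts through the receptor EGFR. Libraries 1 to 3 came from cells that received a control siRNA and libraries 4 to 6 from cells that received an siRNA against Wt1, a zinc finger transcription factor. Both groups therefore share the transgene, the fibrotic lung and the culture, and the comparison asks which transcripts differ when Wt1 is lowered in such cells. The promoter that drives the transgene, the ages of the mice, the siRNA sequences, the time to harvest and whether each library is its own culture or animal are not given here in the labels. Accordingly, p-values reflect just the scatter among these 6 samples, and that scatter may be technical.

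Glutathione transferases join the tripeptide glutathione to electrophilic compounds, such as products of lipid peroxidation and drugs, which makes them more soluble and ready for export. The soluble enzymes form classes named by Greek letters (alpha, mu, pi, theta, omega, zeta), and a class called kappa is found in mitochondria and peroxisomes. The microsomal enzymes Mgst1, Mgst2 and Mgst3 belong to another family, MAPEG, whose members sit in membranes and include synthases of leukotrienes and prostaglandin E. Several of the genes are known targets of NRF2, a transcription factor that responds to oxidants and electrophiles through the antioxidant response element.

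Depth was similar in all libraries, at 26.1 to 32.1 (in units of 1e6) counts each. Wt1 itself fell from 52.0 ± 3.50 to 9.31 ± 1.83 counts per 1e6 counts (CPM; mean ± SD of 3 libraries), or by 2.48 ± 0.16 on the log2 scale (SE; edgeR quasi-likelihood test, adjusted p = 5.98e-06). The cells carried fibroblast transcripts in every library, with summed levels of 11 markers of 21282 to 30518 CPM in controls and 33034 to 40235 CPM after Wt1 siRNA. Of these 11 markers 5 were higher and 2 lower: the sum is mostly that of collagen transcripts, of which Col1a1 rose by 1.13 ± 0.19 and Col1a2 by 0.74 ± 0.14 on the log2 scale, while Col3a1 fell by 0.46 ± 0.11 and the growth factor receptor Pdgfra by 1.17 ± 0.13. Summed levels of markers of other lung cells were lower, although some single markers exceeded the fibroblast markers Tcf21, Lum and Thy1. The summed level of 11 epithelial markers was 50.5 to 67.7 CPM in controls and 42.4 to 47.7 CPM after Wt1 siRNA (0 higher and 2 lower of 7 tested), with Scgb1a1 at 0 counts in every library. For 11 macrophage markers the sums were 41.5 to 51.1 and 34.3 to 38.8 CPM (0 higher and 1 lower of 6 tested), with Siglecf at 0 counts in every library. For 8 endothelial markers they were 105 to 130 and 88.6 to 108 CPM (0 higher and 1 lower of 7 tested). The sums of 6 mesothelial markers were 191 to 245 CPM in controls and 145 to 190 CPM after Wt1 siRNA, with 3 lower and 2 higher of 6 tested. The lower ones were Upk3b (log2 fold change -2.16 ± 0.36), Lrrn4 (-2.10 ± 0.15) and Gpm6a (-1.06 ± 0.20). The higher ones were Krt19 (1.12 ± 0.19) and Msln (0.87 ± 0.15). Upk3b and Lrrn4 fell about as far as Mgst1 (-2.12). In controls Lrrn4 was at 70.9 ± 8.49 CPM, against 16.6 ± 3.37 for Tcf21, 15.7 ± 1.27 for Lum and 6.21 ± 2.1 for Thy1. Apart from the endothelial one, the sums of these marker lists did not overlap between the groups, and their part in the results was not tested. In bulk RNA, fewer cells of a type and less RNA per cell cannot be told apart.

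The RefSeq table of regions around annotated starts, in build GRCm38.p6, held 11 entries for 9 of the 10 members, each covering 250 bases before the start and 50 from it onward; Gsta4 is not among them. The 2 starts of Mgst1 are shown because it had the lowest fold change, and Gstp1 because it is an abundant member that did not pass. Gstm1, a second member that fell, also has an outer and an inner start, of which only the outer is shown. Capitals mark matches, on either strand, to 3 short motifs: TGACNNNGC, the core of the antioxidant response element, TGANTCA, the AP-1 motif, and GNGTGGGNG, a GC-rich motif of the type bound by WT1. The first and second motif can share letters, but no entry printed holds more than 1 match.
Mgst1, outer start (chr6:138140277-138140576, + strand): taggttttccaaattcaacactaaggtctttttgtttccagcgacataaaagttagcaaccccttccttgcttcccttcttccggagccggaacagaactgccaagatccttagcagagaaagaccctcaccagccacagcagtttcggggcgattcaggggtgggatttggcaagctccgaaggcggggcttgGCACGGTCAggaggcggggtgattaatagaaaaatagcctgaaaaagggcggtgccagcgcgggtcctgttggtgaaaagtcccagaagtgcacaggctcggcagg
Mgst1, inner start (chr6:138141337-138141636, + strand): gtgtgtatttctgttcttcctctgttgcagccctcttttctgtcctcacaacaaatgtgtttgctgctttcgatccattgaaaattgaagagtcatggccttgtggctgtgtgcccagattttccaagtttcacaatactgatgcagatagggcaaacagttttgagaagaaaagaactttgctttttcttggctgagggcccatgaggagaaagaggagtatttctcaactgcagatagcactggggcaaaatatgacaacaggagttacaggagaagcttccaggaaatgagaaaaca
Gstm1, outer start (chr3:108017924-108018223, - strand): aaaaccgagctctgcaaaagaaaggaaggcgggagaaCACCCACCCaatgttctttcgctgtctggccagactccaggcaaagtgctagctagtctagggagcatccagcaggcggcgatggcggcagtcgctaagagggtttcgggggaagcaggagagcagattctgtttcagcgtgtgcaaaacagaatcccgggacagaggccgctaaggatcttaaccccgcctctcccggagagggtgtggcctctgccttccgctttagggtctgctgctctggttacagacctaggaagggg
Gstp1 (chr19:4037863-4038162, - strand): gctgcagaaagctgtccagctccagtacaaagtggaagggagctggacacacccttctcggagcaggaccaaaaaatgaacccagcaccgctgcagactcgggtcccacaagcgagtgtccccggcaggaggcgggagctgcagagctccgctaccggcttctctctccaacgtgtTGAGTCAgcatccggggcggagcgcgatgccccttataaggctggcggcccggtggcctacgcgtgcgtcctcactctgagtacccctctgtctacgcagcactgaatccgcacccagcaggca
The outer start of Mgst1 held the antioxidant response element core on the minus strand, at positions -56 to -48 when the first transcribed base is 0, and its inner start held none of the 3 motifs. This was the only match to that core among the 11 entries, against 12.4% of all 32851 entries of the table. The WT1-type motif was found in 1 of the 11 entries, the outer start of Gstm1 (minus strand, -213 to -205), against 14.3% of all. The inner start of Gstm1, which is not printed, held none of the 3 motifs. The AP-1 motif was found in 2, Gstp1 (-74 to -68) and Mgst2 (-52 to -46), against 7.81% of all. The Mgst2 entry (chr3:51660929-51661228, + strand) is for a start that lies inside the annotated span of the gene. A match is a description of the letters only.

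Among the microsomal members, Mgst1 (gene ID 56615, chr6:138140527-138156755, 4 exons in its longest transcript) encodes the enzyme that conjugates glutathione in the endoplasmic reticulum and outer mitochondrial membrane and can reduce lipid hydroperoxides. It stood at 117, 108 and 89.9 CPM in control libraries 1 to 3 and at 22.0, 21.0 and 29.4 CPM in Wt1 siRNA libraries 4 to 6. The groups lay far apart, with the lowest control at 89.9 CPM and the highest Wt1 siRNA library at 29.4 CPM. Mgst1 averaged 105 ± 14 CPM in controls against 24.2 ± 4.62 CPM after Wt1 siRNA (SD, n = 3), which is 4.35-fold lower or -2.12 ± 0.16 (SE) on the log2 scale. This was rank 75 from the lowest of 14190 fold changes, and with 1 library left out it ranged from -2.29 to -2.03. None of the 2138 different stretches of 50 bases in its annotated transcripts occurred in a transcript of another gene, and no annotated gene overlapped its span, so no other transcript shares its sequence at this length.

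Mgst2 and Mgst3, the other microsomal members, were scarce and did not pass. Mgst2 (gene ID 211666, chr3:51636912-51682675), which can make leukotriene C4, had 11, 28 and 3 counts in controls and 32, 36 and 10 counts after Wt1 siRNA. The groups overlapped, and its log2 fold change of 0.95 ± 0.85 (95% interval -0.90 to 2.81, adjusted p = 0.490, edgeR) was the least precise of the members. An annotated pseudogene that overlaps one end of Mgst2 is not analysed here. Mgst3 (gene ID 66447, chr1:167371966-167393841), a microsomal transferase and peroxidase, was at 2.72, 1.34 and 3.35 CPM in controls and at 3.24, 1.96 and 3.72 CPM after Wt1 siRNA. Its groups overlapped, with a log2 fold change of 0.27 ± 0.42 (interval -0.64 to 1.18, adjusted p = 0.712, edgeR). A fall as large as that of Mgst1 lies below both intervals, while a rise of that size lies within the interval of Mgst2.

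**Figure D1:**
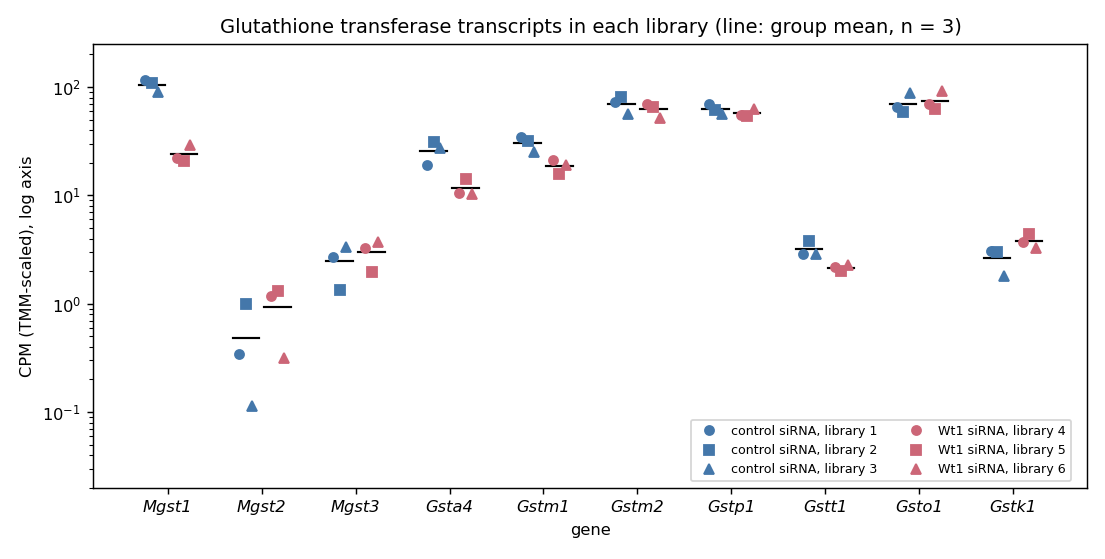
Level of each of the 10 transcripts in CPM on a log axis, with 1 point per library (blue, control siRNA; red, Wt1 siRNA) and a line at each group mean (n = 3). The control points of Mgst1 lie at 89.9 to 117 CPM and its Wt1 siRNA points at 21.0 to 29.4 CPM; the groups also separate for Gsta4, Gstm1, Gstt1 and Gstk1.

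Of the 9 members other than Mgst1, 2 were lower, Gsta4 and Gstm1, 0 were higher and 7 did not pass at an adjusted p below 0.05 (edgeR quasi-likelihood test, Benjamini-Hochberg over 14190 genes). That is 22.2% of 9, where 19.3% of all genes tested passed in either direction and 10.3% were lower, so the share is near the background. Of all calls 1284 were higher and 1459 lower, and 855 and 1829 with scaling by library size alone, which left the 2 member calls in place. No member was higher by DESeq2 or limma-voom either (0 each), nor by edgeR's p before adjustment (0 below 0.05). The median log2 fold change of the 9 was -0.12, against 0.00 over all genes tested. Control and Wt1 siRNA libraries were fully separated for 4 of the 9 (44.4%), against 36.4% of all genes tested, and 3 of these 4 were lower (33.3% of 9, against 18.3% of all genes).

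Gsta4 (gene ID 14860, chr9:78191966-78209349, 7 exons), an alpha class enzyme known for its preference for 4-hydroxynonenal, an aldehyde from oxidized lipids, was at 19.1, 31.0 and 27.6 CPM in controls and at 10.5, 14.1 and 10.4 CPM after Wt1 siRNA. Every Wt1 siRNA library lay below every control, of which library 1 was the lowest. It fell from 25.9 ± 6.16 to 11.7 ± 2.13 CPM (log2 fold change -1.15 ± 0.20, 2.22-fold lower, adjusted p = 0.00219, edgeR). The call held with each library left out, with log2 fold changes of -1.33 to -1.0. None of the stretches of 50 bases in its transcripts occurred in another gene, and with the counts of all alpha class genes summed the log2 fold change was -0.70 (adjusted p = 0.00617, edgeR).

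The mu class genes lie side by side on chromosome 3, and the members from this cluster differed in their call. Gstm1 (gene ID 14862, chr3:108012250-108017973, 8 exons), a broad detoxifying enzyme, was at 34.9, 32 and 25.0 CPM in controls and at 21.2, 15.8 and 19.2 CPM after Wt1 siRNA. No control library overlapped the other group, and Gstm1 fell from 30.6 ± 5.11 to 18.7 ± 2.73 CPM (log2 fold change -0.71 ± 0.16, 1.64-fold lower, adjusted p = 0.0105, edgeR). Without control library 1 the fold change was -0.60 and the adjusted p = 0.0514.

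Gstm2 (gene ID 14863, chr3:107981702-107986420, 8 exons), its neighbour of the same class, was at 73.1, 80.7 and 56.3 CPM in controls and at 69.2, 65.2 and 52.2 CPM after Wt1 siRNA. Its groups overlapped, and the log2 fold change of -0.17 ± 0.15 did not pass (interval -0.50 to 0.16, adjusted p = 0.483, edgeR). The ratio of Gstm1 to Gstm2 counts, which does not depend on scaling between libraries, was 0.477, 0.396 and 0.443 in controls and 0.306, 0.242 and 0.368 after Wt1 siRNA. Each Wt1 siRNA library lay below each control, and the exact permutation test of the log2 ratio gave p = 0.10 (two-sided, n = 3 per group), the smallest p this design allows.

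Reads of the mu class could have been shared between copies. Of the stretches of 50 bases in Gstm1 transcripts, 18.9% also occurred in another gene, mainly the pseudogene Gstm2-ps1 (14.1%) and Gstm3 (8.16%), while Gstm2 itself shared 0.724%. For Gstm2 transcripts the share was 5.65%. Where the counts of all 7 mu class genes were summed before the fit, the class had a log2 fold change of -0.24 (adjusted p = 0.240, edgeR), so the single values of this cluster are uncertain.

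The pi class member Gstp1 (gene ID 14870, chr19:4035411-4037912, 7 exons), which also binds and restrains stress kinases, was at 69.2, 61.9 and 55.9 CPM in controls and at 54.8, 54.5 and 62.4 CPM after Wt1 siRNA. Its groups overlapped, with a log2 fold change of -0.12 ± 0.12 (interval -0.39 to 0.14, adjusted p = 0.532, edgeR), the narrowest interval of the members. The value could include reads of the adjacent copy Gstp2, or lack reads given to it: 33.7% of the 50-base stretches of Gstp1 also occurred in Gstp2 transcripts. The ratio of Gstp2 to Gstp1 counts was nearly constant, at 0.820, 0.808 and 0.786 in controls and 0.790, 0.785 and 0.799 after Wt1 siRNA. Gstp2 itself had 50.3 ± 6.42 and 45.3 ± 3.93 CPM (log2 fold change -0.15 ± 0.13), and the third copy, Gstp3, had at most 7 counts in a library.

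The theta class member Gstt1 (gene ID 14871, chr10:75783813-75798584), which acts on small halogenated compounds, was at 2.90, 3.80 and 2.89 CPM in controls and at 2.19, 1.99 and 2.28 CPM after Wt1 siRNA. Its groups did not overlap, but the log2 fold change of -0.57 ± 0.33 did not pass (interval -1.29 to 0.16, adjusted p = 0.273, edgeR). The kappa class member Gstk1 (gene ID 76263, chr6:42245935-42250441), found in mitochondria and peroxisomes, was at 3.09, 2.99 and 1.8 CPM in controls and at 3.68, 4.42 and 3.29 CPM after Wt1 siRNA. Here the Wt1 siRNA libraries were the higher ones, without overlap, and the log2 fold change of 0.53 ± 0.33 did not pass either (interval -0.19 to 1.25, adjusted p = 0.305, edgeR).

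Gsto1 (gene ID 14873, chr19:47854973-47864790), an omega class enzyme with thiol transferase and dehydroascorbate reductase activity, was at 65.2, 58.5 and 87.8 CPM in controls and at 69.1, 63.3 and 91.3 CPM after Wt1 siRNA. In both groups 1 library, control library 3 and Wt1 siRNA library 6, stood above the other two, and the groups overlapped. The log2 fold change was 0.08 ± 0.17 (interval -0.29 to 0.45, adjusted p = 0.799, edgeR), and leaving out 1 library turned its sign, to -0.04 for control library 2 and -0.09 for Wt1 siRNA library 6.

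**Figure D2:**
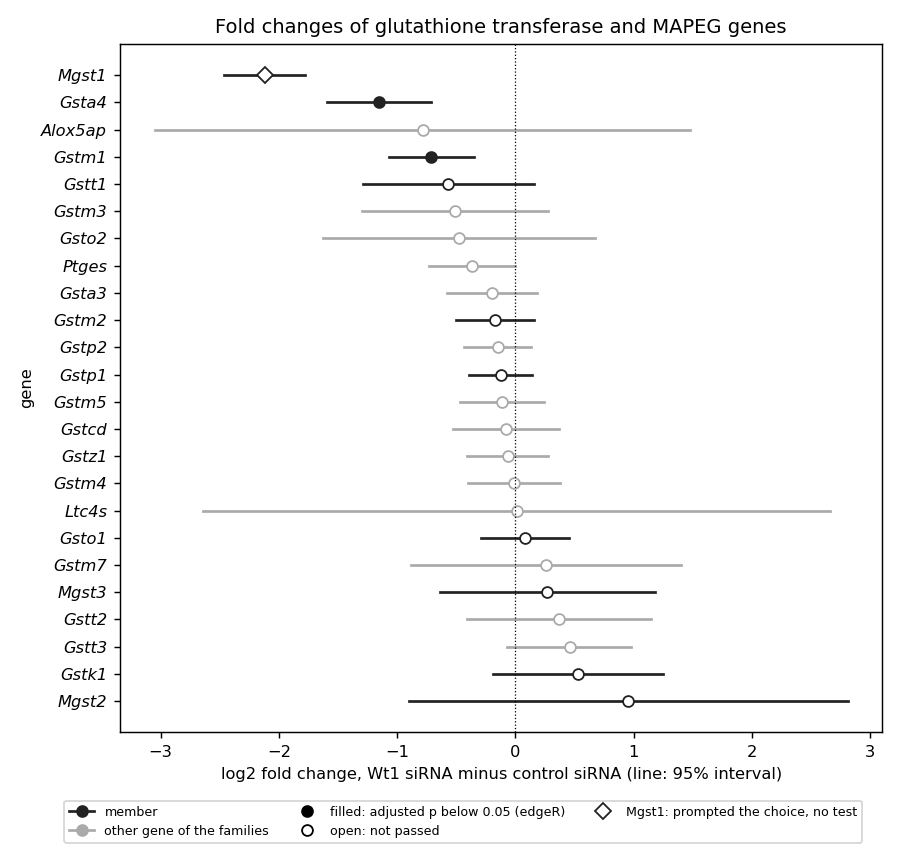
Log2 fold change of Wt1 siRNA against control siRNA for the 10 members (black) and the 14 other tested genes of the transferase and MAPEG families (grey), with 95% intervals. Filled points passed at an adjusted p below 0.05 (edgeR), and the diamond marks Mgst1, given without a test. Gsta4 at -1.15 and Gstm1 at -0.71 are the filled points. The line of Mgst1 describes the scatter of its libraries only, because its fall prompted the choice.

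Of 22 other genes of these families fixed as a list, 20 were in the table, 14 were tested, and 0 were higher and 0 lower (edgeR; DESeq2 and limma-voom likewise gave 0 and 0, as did an unadjusted p below 0.05). Their median log2 fold change was -0.10. Ptges, the inducible prostaglandin E synthase of the MAPEG family, was the most abundant of them in CPM at 113 ± 29.1 in controls and 87.5 ± 11.7 after Wt1 siRNA (-0.37 ± 0.17, adjusted p = 0.156, edgeR), and was lower without control library 2. Gstm5, a further mu class gene, had 33.9 ± 6.82 and 31.4 ± 4.53 CPM (-0.11 ± 0.16), and Gstm4 had 11.2 ± 0.873 and 11.1 ± 1.36 CPM. Gstm3, which shares sequence with Gstm1, had 3.61 ± 1.27 and 2.54 ± 0.535 CPM (-0.51 ± 0.36).

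Gsta3, an alpha class enzyme, had 16.0 ± 2.75 and 13.9 ± 1.36 CPM (-0.20 ± 0.17), unlike Gsta4 without a call; the difference between these genes was not tested. Gstt3 had 6.56 ± 1.36 and 9.03 ± 2.07 CPM (0.46 ± 0.24) and Gstt2 had 2.02 ± 0.257 and 2.61 ± 0.223 CPM (0.37 ± 0.36), both with the Wt1 siRNA libraries above all controls and neither with a call. With the theta class counts summed, Gstt1 and these neighbours gave a log2 fold change of 0.23 (adjusted p = 0.417, edgeR), opposite in sign to that of Gstt1 alone. The zeta class gene Gstz1, an enzyme of tyrosine breakdown, had 17 ± 1.77 and 16.2 ± 1.86 CPM, and Gstcd had 15.6 ± 2.04 and 14.7 ± 4.07 CPM. Gstm7, Gsto2, Ltc4s and Alox5ap, the last a partner of leukotriene synthesis, were scarce, the highest value in any library being 3.48 CPM for Gsto2. Of the 6 genes that missed the filter, Gsta1, Gsta2, Gstm6, Gstp3, Gstt4 and Hpgds, none had more than 29 counts in a library, and Gstt4 had 0 in all.

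Levels of different genes were compared per length, as CPM per kb of annotated exon. In controls Mgst1 had the highest level at 52.2 ± 6.93, followed by Gstm2 at 41.7 ± 7.44, Gstp1 at 40.3 ± 4.29 and Gsto1 at 34.9 ± 7.58 CPM per kb. Mgst1 lay above Gstm2 in each of the 3 control libraries, although the ranges over libraries overlapped (44.6 to 58.2 and 33.5 to 48.1 CPM per kb), while Gstm2, Gstp1 and Gsto1 differed from each other by less than the larger of their SDs. Gstm1 at 20.8 ± 3.47 and Gsta4 at 20.5 ± 4.87 CPM per kb came next and were alike, followed at a clear distance by Mgst3 at 2.25 ± 0.936, Gstt1 at 2.09 ± 0.341, Gstk1 at 1.79 ± 0.486 and Mgst2 at 0.129 ± 0.122 CPM per kb.

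After Wt1 siRNA the highest levels were those of Gstm2 at 37.1 ± 5.31, Gstp1 at 37.0 ± 2.87 and Gsto1 at 36.8 ± 7.30 CPM per kb, which are not distinguishable with this length. Mgst1 had moved down to 12.0 ± 2.29 CPM per kb, beside Gstm1 at 12.7 ± 1.85. Gsta4 was at 9.23 ± 1.68 CPM per kb, and its libraries overlapped those of Mgst1. The remaining 4 members stayed low, the highest value in any library being 3.39 CPM per kb for Mgst3. The order among the higher members depends on the length used. With the longest transcript as length, Mgst1 made up 8.37% ± 1.13 of the summed level after Wt1 siRNA and Gstm1 5.89% ± 0.752. Mgst1 then lay above Gstm1 in each of these libraries. Gstp1 made up 28.3% ± 0.909, Gsto1 25.5% ± 3.58 and Gstm2 23.9% ± 4.43.

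The summed level of the 10 transcripts was 224, 223 and 203 CPM per kb in controls and 152, 144 and 160 CPM per kb after Wt1 siRNA. Mgst1 made up 24.1% ± 1.98 of this sum in controls and 7.87% ± 1.12 after Wt1 siRNA (SD, n = 3). Without Mgst1 the sum was 166, 169 and 158 CPM per kb in controls and 141, 134 and 145 CPM per kb after Wt1 siRNA, so that these sums did not overlap either. The share of Gstp1 in the sum of 10 was 18.6% ± 1.2 and 24.3% ± 0.952, and that of Gsto1 16.3% ± 4.52 and 24.2% ± 3.58, while their own levels did not pass a test. These sums contain Mgst1 or members chosen with it and are given without a test.

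**Figure D3:**
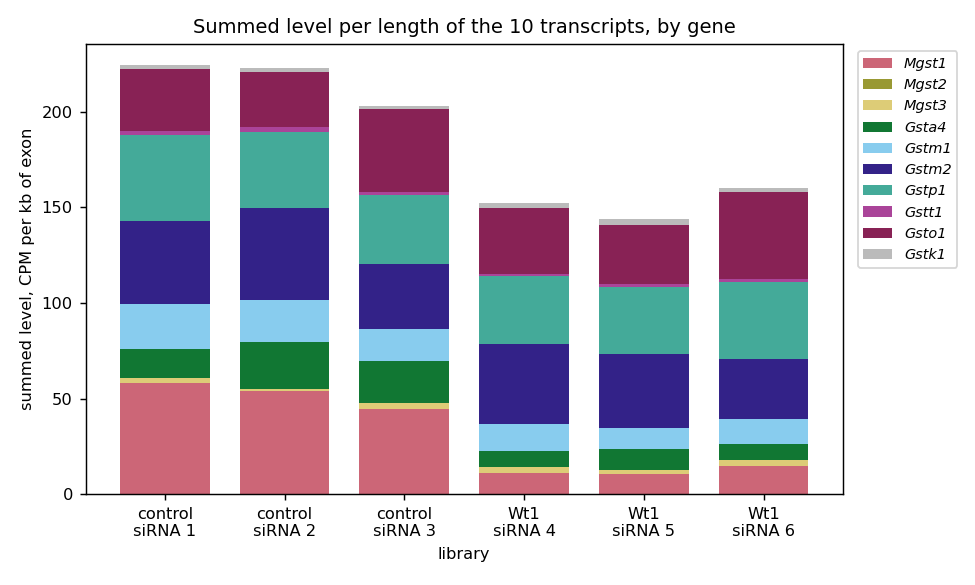
Summed level of the 10 transcripts in each library, in CPM per kb of annotated exon, with each segment the level of 1 gene. The bars reach 203 to 224 in the control libraries and 144 to 160 in the Wt1 siRNA libraries, and the Mgst1 segment at the bottom shrinks from 24.1% to 7.87% of the bar on average.

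Among the genes whose levels over the 6 libraries were most like those of Mgst1, found by the Euclidean distance of centred log2 CPM over 10588 genes, were Mmp8, a collagenase (distance 0.29), Cpxm1, a secreted carboxypeptidase-like protein (0.41), Nkd2, an inhibitor of Wnt signalling (0.43), and Gdf10, a BMP-related ligand (0.45). Mmp8 was at 441, 405 and 400 CPM in controls and at 96.3, 75.8 and 109 CPM after Wt1 siRNA. Gdf10 was at 8.83, 9.89 and 7.74 against 2.38, 1.67 and 2.94 CPM. Each of these genes was high in the control libraries and low after Wt1 siRNA, a likeness that rests mainly on the difference between the groups. None of them is a glutathione transferase.

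Genes for cystine uptake and for the reduction of oxidized glutathione rose, while those that make glutathione did not pass. The list that holds these genes was chosen with earlier results of these data known, so its share of calls is a description. Of 23 tested genes of glutathione synthesis, recycling and peroxidases 6 were higher and 0 lower (edgeR; DESeq2 and limma-voom gave 0 lower too, and 2 were lower before adjustment, at a p below 0.05), with a median of 0.18, a share of 26.1% higher where 9.05% of all genes were higher. Slc3a2, the heavy chain of the cystine and amino acid exchangers, rose from 130 ± 13.9 to 208 ± 33.3 CPM (0.68 ± 0.13, adjusted p = 0.00420). Gsr, the reductase that regenerates glutathione, was at 57.1, 62.5 and 65.7 CPM in controls and at 95.9, 112 and 82.1 CPM after Wt1 siRNA, without overlap, and rose by 0.65 ± 0.13 on the log2 scale (adjusted p = 0.00440). Slc7a11, the cystine transporter, rose from 46.2 ± 3.41 to 68.0 ± 5.39 CPM (0.56 ± 0.12, adjusted p = 0.00580). The other genes with a call were Chac1, which breaks glutathione down (0.81 ± 0.22), the glutaredoxin Glrx3 (0.47 ± 0.11) and the peroxiredoxin Prdx6 (0.36 ± 0.11). Their adjusted p was 0.0219, 0.0125 and 0.0406 in that order (edgeR). Of the genes of synthesis, Gclc and Gclm, the subunits of the rate-limiting ligase, were at 0.05 ± 0.13 and -0.25 ± 0.13, and Gss, the synthetase, at 0.16 ± 0.13. Only 3 were higher when Wt1 siRNA library 4 was left out, Slc3a2, Gsr and Slc7a11, so Chac1, Glrx3 and Prdx6 lost their calls there.

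Of 17 tested genes for the export of conjugates and their conversion to mercapturates 2 were higher and 2 lower (edgeR), with a median of 0.10. The share called, 23.5%, is near the 19.3% of all genes. Abcc1, the main exporter of glutathione conjugates, fell from 109 ± 1.66 to 88.7 ± 1.63 CPM (-0.30 ± 0.10, adjusted p = 0.0478), a call that was lost with any library left out. The related exporters Abcc4 (0.63 ± 0.13, adjusted p = 0.00494) and Abcc5 (0.52 ± 0.13, adjusted p = 0.0171, but 0.106 when Wt1 siRNA library 4 was left out and 0.0696 when control library 3 was) rose.

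Of 24 tested targets of NRF2 outside the glutathione genes 1 was higher and 3 lower (edgeR), with a median of -0.09. That is 4.17% higher and 12.5% lower, against 9.05% and 10.3% of all genes, so the list as a whole does not stand above the background. Hmox1, heme oxygenase 1, was at 163, 117 and 145 CPM in controls and at 81.7, 73.1 and 97.3 CPM after Wt1 siRNA and fell by 0.75 ± 0.14 on the log2 scale (adjusted p = 0.00352). The ferritin heavy chain Fth1 fell by 0.47 ± 0.10 (adjusted p = 0.00681, and 0.0646 without Wt1 siRNA library 4), while the light chain Ftl1 rose by 0.54 ± 0.13 (adjusted p = 0.0125; leaving out Wt1 siRNA library 4, or 1 or 3 of the controls, gave 0.0505 to 0.0538). G6pdx, which supplies NADPH, fell by 0.42 ± 0.12 (adjusted p = 0.0337), a call lost with 5 of the 6 libraries left out in turn. Nqo1, a quinone reductase often read as a sign of NRF2 activity, was at 29.4, 21.6 and 32.6 CPM in controls and at 18.1, 15.2 and 28.7 CPM after Wt1 siRNA, with overlap and no call (-0.43 ± 0.23, adjusted p = 0.219).

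Nfe2l2, which encodes NRF2, had a log2 fold change of -0.08 ± 0.16 and its adaptor for degradation Keap1 of -0.25 ± 0.15, neither with a call (adjusted p = 0.800 and 0.279, edgeR). Of the 11 genes of NRF2 and its regulators 3 were higher and 0 lower (edgeR; DESeq2 and limma-voom gave 0 lower too, and 1 was lower before adjustment, at a p below 0.05). The share higher was 27.3% against 9.05% of all genes, a count of few genes of which 1 call, that of Bach2, held with each library left out. This list too was chosen with earlier results of these data known. Bach2, a repressor that competes at related elements, rose from 8.30 ± 2.75 to 16.2 ± 0.838 CPM (0.96 ± 0.22, adjusted p = 0.0109). Nfe2l1, a relative of NRF2, rose by 0.49 ± 0.12 and Sqstm1, an autophagy receptor that binds KEAP1, by 0.43 ± 0.12, calls lost with 4 and 5 of the 6 libraries left out in turn.

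Enzymes listed for the handling of aldehydes and related compounds had 3 higher and 3 lower of 22 tested (edgeR) and a median of 0.03. This is 13.6% in each direction, against 9.05% higher and 10.3% lower of all genes, and so near the background. Aldh1a2, which makes retinoic acid, fell from 87.9 ± 13.0 to 46.1 ± 7.14 CPM (-0.93 ± 0.15, adjusted p = 0.00112), and Akr1b3, aldose reductase, fell by 0.56 ± 0.12 (adjusted p = 0.00627, and 0.0564 without Wt1 siRNA library 4). Aldh1l2 and Aldh1l1, mitochondrial and cytosolic enzymes that oxidize formyl-tetrahydrofolate, went apart, with a rise of 1.29 ± 0.15 and a fall of 0.64 ± 0.16 (adjusted p = 1.66e-04 and 0.0155). Aldh3a2, a fatty aldehyde dehydrogenase, rose by 0.41 ± 0.11 and Adh7, an alcohol dehydrogenase, by 0.82 ± 0.24, calls that were lost with 3 and 5 of the 6 libraries left out in turn; the call of Aldh1l1 was lost with 3.

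**Figure D4:**
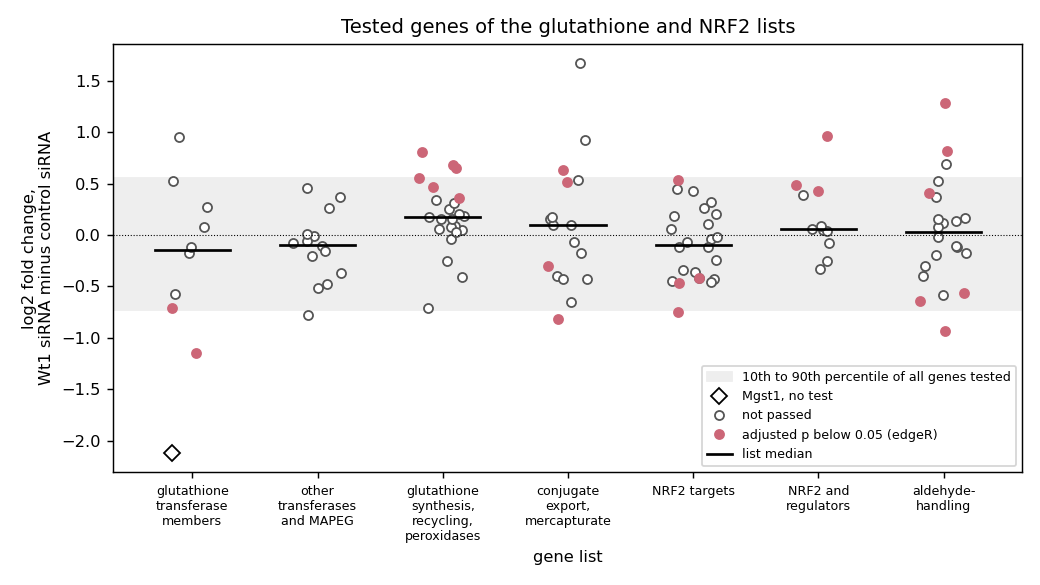
Log2 fold change of each tested gene in the lists of glutathione and NRF2 genes, with filled points for genes that passed at an adjusted p below 0.05 (edgeR), a line at each list median and a grey band over the 10th to 90th percentile of all genes tested. The diamond is Mgst1 at -2.12, and the list medians lie between -0.15 for the 10 members and 0.18 for the genes of glutathione synthesis, recycling and peroxidases.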

How the data were processed

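RNA sequencing counts of 6 libraries were used as deposited: whole-number counts of reads per Entrez gene, not normalized, in 1 table of 24061 genes. Tools listed in the submitters' processing notes are TopHat, DESeq, CASAVA 1.8 and bcl2fastq, with build mm10 (GRCm38). The sources used here do not give the counting tool, annotation, strand setting or filters. Because of this, reads of close copies could be split or shared. Groups were taken from the sample titles. Symbols and coordinates (RefSeq GRCm38.p6) matched 23976 IDs, and exon lengths came from GENCODE M21.

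The test was edgeR 4.0.16 (R 4.3.3), quasi-likelihood, with TMM, filterByExpr (14190 genes kept) and Benjamini-Hochberg adjustment at 0.05. Each SE was obtained from the fold change and its F statistic (size of the log2 value over the root of F), and 95% intervals use the t distribution. Alternatives used DESeq2 1.42.0, limma-voom (limma 3.58.1), library size scaling, robust shrinkage, other filters (none, or at least 5 CPM in 3 libraries), summed paralog counts, another gene length and each library left out. Counts over 14190 genes were also simulated 5 times, with 200 genes changed each time. There the test recovered 28.6% of 1.5-fold, 60.4% of 2-fold and 86.1% of 4-fold changes. In the data far more genes passed (2743), which makes the adjusted threshold less strict. These shares therefore do not give the recovery in the comparison itself.

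The members and lists were chosen with earlier results of these data known. Named genes were all members, all tested genes of the families, up to 3 per direction and list with the smallest p, and the 5 genes most like Mgst1 (some results under this rule are not reported here); Gclc, Gclm, Gss, Chac1, Glrx3, Prdx6, Nqo1, Nfe2l2, Keap1 and the marker genes were named after their values were seen. Pairs of libraries within a group differed by more than sampling noise (chi-square per degree of freedom 18.9 to 70.9).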

Additional observations from a re-analysis of the deposited data

How the results depend on the processing

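No paired analysis was run because the labels give no pairing. The running library numbers (1 to 3 in controls, 4 to 6 after Wt1 siRNA) do not show whether libraries of both groups share a culture or animal. The fall of Mgst1 kept its direction under every alternative run. The call of Gsta4 held in each alternative that fitted the gene by itself, and with paralog counts summed its class sum passed. Of the 9 other members, the number lower (2) was 1 to 2 with 1 library left out, and the number higher was 0 in each. With paralog counts summed, class sums stood in for Gstm1, Gstm2, Gsta4, Gstp1 and Gstt1, and 1 was lower and 0 higher.

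With 1 library left out, the counts higher and lower were as follows. Among other family genes 0 to 1 were lower (1 without control library 2, Ptges). For glutathione synthesis, recycling and peroxidases they were 3 to 6 and 0 to 2 (2 were lower when Wt1 siRNA library 6 or control library 2 was left out). For conjugate export they were 1 to 3 (1 when either Wt1 siRNA library 4 or control library 3 was missing) and 1 to 1. For NRF2 targets they were 0 to 2 (0 without control library 1 or 3 or Wt1 siRNA library 4) and 1 to 4 (1 without Wt1 siRNA library 4). For NRF2 regulators the higher count was 1 to 3 (1 without control library 1 or 3 or Wt1 siRNA library 4 or 5). For aldehyde-handling enzymes they were 1 to 3 (1 without control library 3 or Wt1 siRNA library 4 or 5) and 1 to 3 (1 without Wt1 siRNA library 4). Over all genes, 578 genes rose and 785 fell when Wt1 siRNA library 4 was omitted, against 836 and 1071 when library 5 was. Fewer samples were fitted in each of these.

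The number of NRF2 targets higher was 3 with DESeq2 and 2 without a filter, and the number of export genes lower was 1 without a filter. With library size scaling 1 NRF2 regulator was lower and 1 aldehyde-handling gene higher, against 0 and 3. The cause was not tested. Gstt1 was at 0.23 with theta class counts summed, and Ltc4s at -0.08 with library size scaling and -1.81 with limma-voom. With 1 library left out, log2 fold changes that changed sign, none with a call, ranged from -0.02 to 0.55 for Mgst3, -0.09 to 0.27 for Gsto1, -0.11 to 0.07 for Gstm4, -0.19 to 0.07 for Gstm5, -0.13 to 0.47 for Gstm7, -0.13 to 0.03 for Gstz1, -0.31 to 0.09 for Gstcd and -3.29 to 0.61 for Ltc4s. The share of Mgst1 in the summed level was 25.7% and 8.37% with longest-transcript lengths. The filter of 5 CPM in 3 libraries gave no value for Mgst2, Mgst3, Gstt1 and Gstk1, whose counts limit what could be detected: 3 counts correspond to 0.0926 to 0.113 CPM.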
